A study of Mus musculus with 17 samples.

Results

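Contacts of 2 CTCF sites, 1 beside the alpha-globin locus and 1 beside the beta-globin locus, were compared in mouse erythroid cells by their distance from the site. The comparison used the erythroid libraries alone, 10 of the 17 libraries of the study, and in them the tables of 2 of the 4 viewpoints. A viewpoint is the captured fragment whose partners are read out. The assay was Tri-C, in which cross-linked chromatin is cut by NlaIII, religated and captured with oligonucleotides, so that reads holding the viewpoint and a pair of partner fragments show which sites met it at the same time in the same cell. The erythroid cells were Ter-119+ cells, selected with magnetic beads from spleen tissue of female mice (strain C57Bl6) given 3 doses of phenylhydrazine, which causes anaemia and expands red cell precursors in the spleen; the labels give the dose as 40 mg/g, 12 h apart, and collection after 5 days. The libraries were technical replicates of 3 biological replicates (3, 3 and 4 libraries), which were summed, so n = 3 throughout. Whether each biological replicate stands for 1 animal or a pool is not stated in the labels, so p-values reflect the spread of these samples alone, which may be technical. No group carries a genetic change. The other 7 libraries, also 3 biological replicates, came from E14 embryonic stem (ES) cells of strain 129/Ola and enter only at the end, where strain and cell type differ together and cannot be told apart. The tables hold DNA contacts and no transcripts, so the purity of the Ter-119+ cells was not checked against markers.

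CTCF is a zinc-finger protein that binds DNA in an orientation-dependent way and stops the cohesin ring that extrudes chromatin loops. Pairs of CTCF sites that face each other often mark the 2 ends of a contact domain. At the alpha-globin locus the erythroid enhancers lie upstream of the genes, inside a domain flanked by CTCF sites. At the beta-globin locus the enhancers form the locus control region, upstream of the embryonic and adult genes, and CTCF sites flank the genes and the control region, with olfactory receptor genes around them. The alpha CTCF viewpoint lies on the enhancer side of its locus. The beta CTCF viewpoint lies on the far side of the adult genes, so the order of elements seen from both viewpoints is not the same: enhancers come first at alpha and adult genes first at beta.

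The alpha CTCF viewpoint was placed at chr11:32136092-32138888 and the beta CTCF viewpoint at chr7:110954158-110956820 (mm9), as gaps of 2797 and 2663 bp between listed fragments. Distances run from the centres of these gaps, 32137490 and 110955489, to the midpoint of the partner fragment, and positive distances point toward the globin genes at both loci. The R2 enhancer of the alpha-globin genes then lies 13.5 kb from the alpha CTCF viewpoint, and HS2, one of the enhancers in the control region of the beta-globin locus, lies 54.4 kb from the beta CTCF viewpoint. In the gene order of assembly GRCm38.p6, used here for names only, the genes Nprl3, Mpg, Rhbdf1, Snrnp25 and Il9r come before Hba-x at alpha, and Sh3pxd2b follows Hbq1a. At beta, the olfactory receptor genes Olfr67, Olfr68 and Olfr69 come before Hbb-bt, and Olfr66 follows Hbb-y.

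Each locus has a pair of adult genes, and how alike these are decides whether a read can be assigned to either. Their promoters are printed for that reason, 5' to 3', from RefSeq on GRCm38.p6 (250 bases before to 50 after the start), with the NlaIII site CATG in capitals; 4 of 4 genes matched. They lie at chr11:32283422-32283721 (Hba-a1, plus strand), chr11:32296242-32296541 (Hba-a2, plus strand), chr7:103813874-103814173 (Hbb-bt, minus strand) and chr7:103827879-103828178 (Hbb-bs, minus strand).
Hba-a1: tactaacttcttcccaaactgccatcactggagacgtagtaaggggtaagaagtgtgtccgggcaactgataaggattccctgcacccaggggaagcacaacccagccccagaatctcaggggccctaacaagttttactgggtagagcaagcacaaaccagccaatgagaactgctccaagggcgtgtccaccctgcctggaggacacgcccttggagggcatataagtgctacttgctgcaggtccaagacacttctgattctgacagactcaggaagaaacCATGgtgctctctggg
Hba-a2: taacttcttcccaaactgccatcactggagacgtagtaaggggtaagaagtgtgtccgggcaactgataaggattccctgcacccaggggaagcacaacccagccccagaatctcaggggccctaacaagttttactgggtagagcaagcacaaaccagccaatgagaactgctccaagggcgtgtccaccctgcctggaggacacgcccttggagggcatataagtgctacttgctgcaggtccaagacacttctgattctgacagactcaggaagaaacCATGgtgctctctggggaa
Hbb-bt: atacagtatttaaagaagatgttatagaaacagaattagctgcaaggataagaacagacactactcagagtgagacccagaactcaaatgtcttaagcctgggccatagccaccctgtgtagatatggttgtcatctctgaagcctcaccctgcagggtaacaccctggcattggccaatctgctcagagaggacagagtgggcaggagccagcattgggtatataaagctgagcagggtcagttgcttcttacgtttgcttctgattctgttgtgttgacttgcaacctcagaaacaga
Hbb-bs: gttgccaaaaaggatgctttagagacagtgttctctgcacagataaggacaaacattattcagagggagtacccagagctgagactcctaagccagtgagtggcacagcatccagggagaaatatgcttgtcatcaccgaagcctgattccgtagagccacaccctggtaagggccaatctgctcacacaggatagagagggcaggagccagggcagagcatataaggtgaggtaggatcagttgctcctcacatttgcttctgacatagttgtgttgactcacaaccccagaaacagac
The windows of Hba-a1 and Hba-a2, shifted by 3 bases, were identical over all 297 bases compared, whereas the longest run shared by Hbb-bt and Hbb-bs was 14 bases. Each alpha-globin window holds 1 CATG and each beta-globin window holds 0; over all promoters of that length in the table, 61.1% hold at least 1. In the alpha-globin windows the cut therefore falls in the same place in both copies. Contacts of Hba-a1 and of Hba-a2 are accordingly uncertain between the 2 genes. Only these promoter windows were compared. Whether reads from the rest of either gene pair, Hbb-bt and Hbb-bs included, can be assigned was not tested.

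The alpha CTCF table held 268633, 262669 and 459669 counted pairs in erythroid replicates 1, 2 and 3, and the beta CTCF table held 658673, 730221 and 1082506. Single libraries held 48803 to 134274 pairs at alpha and 106278 to 327659 at beta. Both tables of a replicate come from the same libraries, so alpha and beta were paired by replicate. No molecular identifiers are described, so counts are not independent molecules, and precision from counting is an upper bound.

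A larger share of the alpha CTCF pairs stayed near the viewpoint. Pairs with both fragments on the viewpoint chromosome, within 2 Mb and more than 1 kb from the viewpoint, called window pairs here, made up 33.3%, 28.0% and 42.9% of the alpha table in replicates 1, 2 and 3. At beta they made up 14.6%, 11.8% and 23.02%. Alpha was higher in 3 of 3 replicates and the groups did not overlap; the difference was 18.2 percentage points ± 1.88 (SD of the paired differences, n = 3; exact sign-flip p = 0.25, the smallest that 3 pairs allow, and exact unpaired permutation p = 0.1, the smallest that 3 against 3 allow). With pairs under 2 kb apart left out the window shares were 16.4%, 13.2% and 16.9% at alpha and 7.45%, 5.81% and 9.65% at beta, a smaller difference of 7.84 percentage points ± 0.96 that kept the groups apart. Pairs with neither fragment on the viewpoint chromosome ran the other way, at 27.9%, 32.3% and 19.6% for alpha and 49.5%, 54.4% and 39.8% for beta. Of pairs wholly on the viewpoint chromosome, 60.2% ± 4.43 were window pairs at alpha and 45.3% ± 5.38 at beta (SD, n = 3). The window pairs numbered 89380, 73427 and 197038 at alpha and 96470, 86214 and 249202 at beta. Each fragment pair listed among the window pairs carried a mean of 4.01 to 5.08 counts per library at alpha and 5.82 to 7.96 at beta. All levels below are contacts per 1000 window pairs, in which each pair adds a contact for each of its fragments.

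Within the window, contacts at alpha were concentrated nearer the viewpoint than at beta on both sides. On the side away from the genes the median distance of a contact was 18.3, 21.2 and 18.5 kb at alpha and 77.5, 73.6 and 66.1 kb at beta. On the gene side it was 62.0, 63.9 and 59.9 kb at alpha and 86.3, 87.7 and 78.6 kb at beta. Neither side showed overlap between the viewpoints. The share of gene-side contacts beyond 100 kb was 17.6%, 20.3% and 16.9% at alpha and 40.2%, 41.3% and 36.2% at beta, and on the away side it was 21.2%, 24.4% and 23.0% against 41.7%, 38.4% and 36.1%. Pairs with both fragments within 150 kb made up 79.4%, 76.8% and 80.0% of window pairs at alpha and 65.5%, 67.0% and 72.4% at beta.

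The decay of contacts with distance was summarised by the slope of log10 contacts per kb on log10 distance from 10 to 1000 kb, with both sides summed. It was -1.29, -1.23 and -1.27 at alpha and -1.07, -1.11 and -1.16 at beta. Alpha was steeper in 3 of 3 replicates, by -0.15 ± 0.056 (SD, n = 3; exact sign-flip p = 0.25, exact unpaired permutation p = 0.1), and the groups did not overlap. Fitted from 20 to 500 kb, the slopes were -1.43, -1.36 and -1.45 at alpha and -1.23, -1.24 and -1.40 at beta. Over that range alpha was again steeper in 3 of 3 replicates, by -0.12 ± 0.070, but the groups overlapped (n = 3, exact unpaired permutation p = 0.2) and replicate 3 differed by only -0.054. On the gene side the slopes were -1.33, -1.25 and -1.35 at alpha and -0.95, -0.97 and -1.04 at beta, a difference of -0.32 ± 0.050. On the away side they were -1.25, -1.21 and -1.20 against -1.17, -1.21 and -1.27, which overlapped, with a difference of -0.0053 ± 0.077 (n = 3, exact sign-flip p = 0.75). Whether the 2 sides differ in this respect was not tested as slopes; it was tested per distance class, given with the side ratios.

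**Figure D1:**
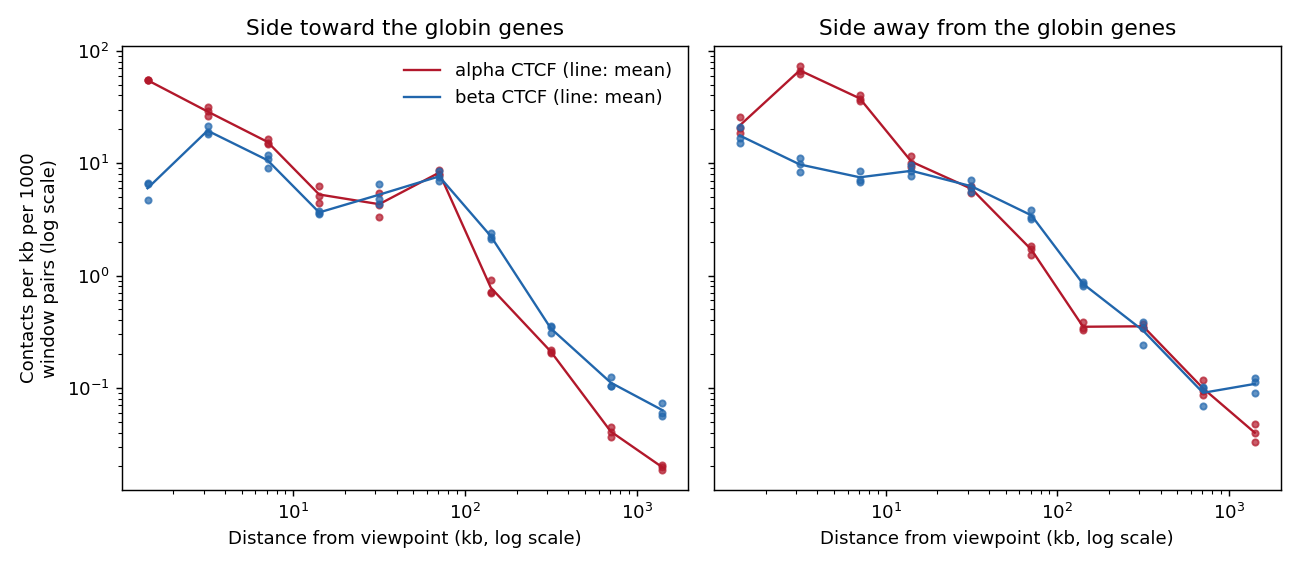
Contacts per kb per 1000 window pairs against distance from the viewpoint (both axes log), toward the globin genes (left) and away from them (right); points are the 3 erythroid replicates and lines join their means. On the gene side both curves rise again to a shoulder at 50-100 kb (means of 8.23 at alpha and 7.62 at beta) and alpha lies below beta in every class beyond it, while on the away side alpha lies far above beta at 2-10 kb and at or below it from 20 to 200 kb.

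Counts were then compared in 10 distance classes per side with edgeR's quasi-likelihood test, replicate as a block and window pairs as library size. Of the 20 classes, 16 passed an adjusted p of 0.05 (80%), 8 higher (40%) and 8 lower (40%) at alpha. A class differs between the loci also in how many NlaIII fragments are listed in it, and these numbers are given where they differ most. A fragment is listed only if it occurs in a deposited pair, so this is not the number of fragments in the genome. An offset by it may take up part of a difference in contacts. Relative to all pairs of the table, instead of window pairs, the median log2 difference over the classes moved from 0.13 to 1.24, because alpha has the larger window share; each direction below is relative to window pairs, and the classes that turn are named. Relative to all pairs on the viewpoint chromosome the median was 0.54.

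Closest to the viewpoint alpha was higher. On the away side, the class at 2-5 kb held 219.01, 187 and 196 contacts per 1000 window pairs in alpha replicates 1, 2 and 3 and 29.4, 32.999 and 25.2 at beta. The groups stood far apart, with a log2 difference of 2.79 (SE 0.13, edgeR adjusted p = 0.000396). The class at 5-10 kb held 201, 186 and 178 at alpha and 42.5, 35.6 and 34.2 at beta, a log2 difference of 2.34 (SE 0.073, edgeR adjusted p = 0.000281). These classes hold 25 and 32 listed fragments at alpha against 8 and 15 at beta, and with an offset for fragment number the differences were 1.14 and 1.24, both still called. On the gene side at 1-2 kb the levels were 54.5, 55.2 and 54.5 at alpha and 6.59, 6.59 and 4.74 at beta, a log2 difference of 3.22 (SE 0.13, edgeR adjusted p = 0.000361), from 7 and 3 fragments; with the fragment offset it was 1.99. The other near classes differed less. The gene-side classes at 2-5, 5-10 and 10-20 kb had log2 differences of 0.57, 0.55 and 0.52, all called. They held 16, 25 and 54 listed fragments at alpha against 13, 16 and 26 at beta. With the fragment offset the differences were 0.27 (not called), -0.10 (not called) and -0.54 (called in the opposite direction). On the away side, 1-2 kb had 0.30 and 10-20 kb had 0.27; both lost the call without the replicate block, and that at 10-20 kb also without replicate 2 or 3 (0.26 and 0.27). The gene-side calls at 2-5 and 10-20 kb were lost without replicate 1 (0.49 and 0.53), and those at 5-10 and 10-20 kb with pairs under 2 kb apart left out (0.053 and 0.33). On the away side at 1-2 kb the direction turned to -0.070 when a fragment pair counted once per library and to -0.24 with the first technical replicates alone.

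Between 20 and 100 kb the order depended on the side. At 20-50 kb on the away side the levels were 182, 186 and 164 at alpha and 167, 211 and 183 at beta, which overlap, with a log2 difference of -0.070 (SE 0.086, edgeR adjusted p = 0.466) that turned to 1.04 relative to the table total. At 20-50 kb on the gene side they were 126, 100.2 and 162 against 145, 131 and 196, lower at alpha in every replicate, with a log2 difference of -0.29 (SE 0.068, edgeR adjusted p = 0.0204) that turned to 0.82 relative to the table total and to 0.027 with pairs under 2 kb apart left out; it was not called without replicate 3 (-0.29) or without the replicate block (-0.28). The gene-side class at 50-100 kb was the highest of all at both viewpoints, with 395, 402 and 438 contacts at alpha and 376, 345 and 423 at beta. That shoulder did not pass the test between the viewpoints (log2 difference 0.11, SE 0.046, edgeR adjusted p = 0.0896). It was called higher at alpha in 8 of 15 alternatives, and the difference kept its direction in all 15 (0.060 to 1.22). Among the 8 were leaving out pairs under 2 kb apart (0.30) and scaling to the table total (1.22). The away-side class at 50-100 kb had 86.7, 91.5 and 76.6 contacts at alpha and 164, 192 and 158 at beta, a log2 difference of -1.01 (SE 0.067, edgeR adjusted p = 0.000769) that turned to 0.094 relative to the table total.

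Beyond 100 kb alpha was lower in every called class. At 100-200 kb the gene side held 71.5, 92.1 and 70.1 contacts at alpha and 212, 220 and 240 at beta, a log2 difference of -1.53 (SE 0.13, edgeR adjusted p = 0.00103), and the away side held 32.5, 38.5 and 34.02 against 88.4, 84.2 and 80.2, a log2 difference of -1.27 (SE 0.091, edgeR adjusted p = 0.000769). The gene-side classes at 200-500, 500-1000 and 1000-2000 kb differed by -0.68, -1.44 and -1.68, and the away-side class at 1000-2000 kb by -1.45. The away-side classes at 200-500 and 500-1000 kb stood apart from this run: alpha held 105, 110.1 and 103 and then 42.8, 58.7 and 47.0 contacts, beta held 102, 117 and 72.4 and then 51.3, 49.96 and 34.4, the groups overlapped, and neither class passed the test (edgeR adjusted p = 0.401 and 0.464); without replicate 3 their log2 differences were -0.022 and -0.014, and relative to the table total both were called higher at alpha (1.26 and 1.25). Relative to the table total, the far classes that were called kept their direction except gene 200-500 kb, which turned to 0.42, and the away class at 100-200 kb, at -0.16, no longer passed (edgeR adjusted p = 0.259).

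The side toward the globin genes took a smaller share of contacts at alpha. The share of contacts on the gene side was 48.2%, 47.9% and 52.8% at alpha and 56.4%, 52.6% and 61.5% at beta. Alpha was lower in 3 of 3 replicates, although replicate 3 of alpha lay above replicate 2 of beta; the paired difference was -7.17 percentage points ± 2.18 (SD, n = 3; exact sign-flip p = 0.25, exact unpaired permutation p = 0.2). Within 150 kb of the viewpoint the shares were 51.0%, 51.3% and 55.7% against 60.6%, 56.3% and 65.1%. There, with pairs under 2 kb apart left out, the paired differences were -4.78, 0.14 and -1.24 in replicates 1, 2 and 3, so the direction turned in replicate 2 and the groups overlapped (mean -1.96 ± 2.54, SD, n = 3; exact unpaired permutation p = 0.7). Over the whole window the difference was -3.57 when a fragment pair counted once per library and -3.29 with pairs under 2 kb apart left out, still the same way in 3 of 3 replicates.

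A single share hides that the preferred side changed with distance, and did so differently at each viewpoint. The ratio of gene-side over away-side contacts was compared between the viewpoints within each of the 10 unsigned classes, as a side by viewpoint interaction in edgeR; this ratio within a table does not depend on the library size. The interaction was called in 6 of 10 classes (60%). Within alpha, all 10 classes had a called side (100%), with 3 toward the genes (30%) and 7 away (70%). Within beta, 7 of 10 were called (70%), with 4 toward the genes (40%) and 3 away (30%).

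At 1-2 kb the log2 ratio of gene side over away side was 1.08, 1.43 and 1.55 in the alpha replicates and -1.66, -1.35 and -1.68 in the beta replicates, opposite sides, and the interaction was 2.92 (SE 0.23, edgeR adjusted p = 2.27e-14). From 2 to 10 kb the order was reversed. At 2-5 kb the log2 ratios were -1.22, -1.10 and -1.33 at alpha and 0.96, 0.71 and 1.34 at beta (interaction -2.22, SE 0.22, edgeR adjusted p = 1.14e-11), and at 5-10 kb -1.44, -1.31 and -1.11 against 0.35, 0.36 and 0.80 (interaction -1.79, SE 0.22, edgeR adjusted p = 1.97e-09). Dividing each side by its number of listed fragments left opposite signs at these 3 distances, with alpha at 0.87, -0.57 and -0.93 and beta at -0.83, 0.30 and 0.41. The 2 viewpoints leaned the same way at 10-20 kb, away from the genes, with log2 ratios of -0.98 and -1.22 (interaction 0.25, edgeR adjusted p = 0.318), and at 20-50 kb, where alpha was at -0.48 and beta at -0.26, the latter not called. Divided by listed fragments, the ratios at 10-20 kb were -1.48 at alpha and -0.68 at beta. Both still leaned away, but alpha then did so more strongly, which was not tested.

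At 50-100 kb both viewpoints faced the genes, and alpha did so more strongly. The log2 ratios were 2.19, 2.14 and 2.52 at alpha, a 4.86-fold excess from the fit, and 1.19, 0.84 and 1.42 at beta, a 2.22-fold excess; no replicate overlapped, and the interaction was 1.13 (SE 0.26, edgeR adjusted p = 0.000234). This class holds the adult gene Hba-a2 and the CTCF sites +44 and +48 at alpha, and most of the locus control region at beta. At 100-200 kb the gene side still led, at 1.15 and 1.41 (interaction -0.26, edgeR adjusted p = 0.318). Farther out the viewpoints parted again. At 200-500 kb the log2 ratios were -0.76, -0.83 and -0.65 at alpha and 0.04, -0.14 and 0.37 at beta (interaction -0.84, SE 0.22, edgeR adjusted p = 0.000801), a call lost without replicate 1 (-0.85, edgeR adjusted p = 0.0963). At 500-1000 kb they were -1.23, -1.52 and -1.05 against 0.29, 0.04 and 0.61, so every alpha replicate leaned away and every beta replicate toward the gene side, although the beta ratio alone missed the threshold (0.32, edgeR adjusted p = 0.0562; interaction -1.59, SE 0.22, edgeR adjusted p = 1.98e-08). At 1000-2000 kb both leaned away, at -1.01 and -0.77 (interaction -0.23, edgeR adjusted p = 0.318; with pairs under 2 kb apart left out, -0.49, edgeR adjusted p = 0.038).

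**Figure D2:**
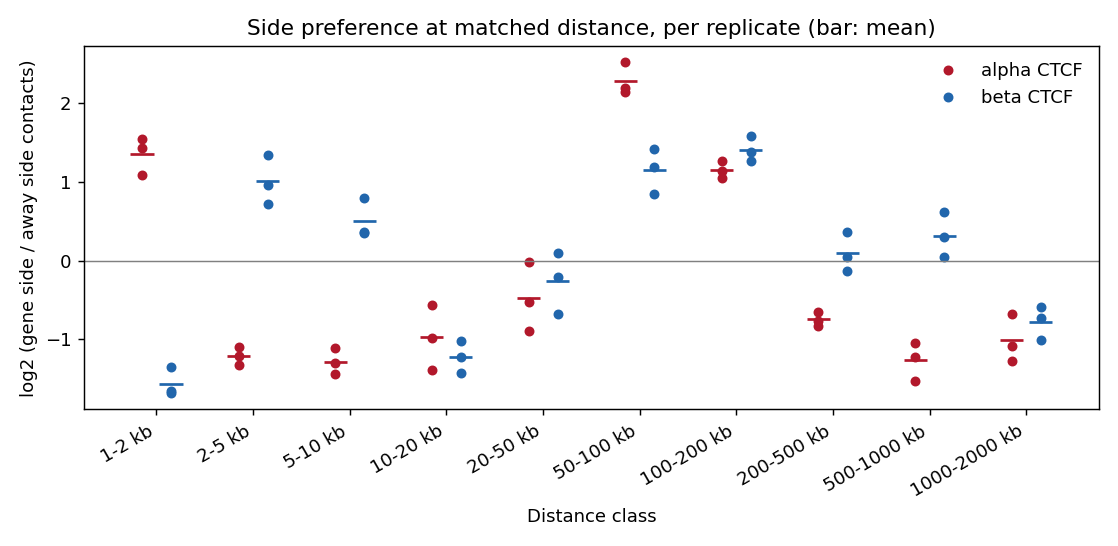
Log2 ratio of gene-side over away-side contacts in each distance class, per erythroid replicate (points) with the mean of 3 (bar), for the alpha CTCF and beta CTCF viewpoints. Points above 0 are classes with more contacts toward the globin genes; the viewpoints lie on opposite sides of 0 at 1-2, 2-5, 5-10 and 500-1000 kb, and on the same side at 10-20, 50-100, 100-200 and 1000-2000 kb.

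Named elements on the gene side were read in windows placed at approximate offsets from R2 and HS2, not from an mm9 annotation, as levels without a test. Each is given beside the mirror window at the same distance on the away side. Of the enhancers at alpha, R1 had 19.7, 19.8 and 22.2 contacts per 1000 window pairs in its 3 kb window against 74.6, 64.3 and 59.2 in the mirror window, and R2 had 20.9, 14.7 and 25.6 against 37.0, 46.9 and 30.5. R3 had a mean of 13.6 ± 2.07, Rm 7.93 ± 1.73 and R4 3.00 ± 0.60, against 42.4 ± 1.66, 13.9 ± 2.59 and 13.3 ± 1.00 in their mirrors (SD, n = 3). All 5 enhancer windows thus lay below their mirrors in 3 of 3 replicates. The genes and the distal CTCF sites lay above theirs. Hba-x, which encodes embryonic zeta-globin, had 21.8, 14.04 and 20.4 against 13.9, 11.7 and 10.9. Hba-a1 and Hba-a2, which encode adult alpha-globin, had means of 21.8 ± 9.36 and 28.2 ± 10.01 against 13.8 ± 1.91 and 10.01 ± 1.49. Replicate 3 was the highest at both genes (32.3 and 39.1) and replicate 2 the lowest (14.4 and 19.4). At Hba-a1 replicate 2 was nearly level with its mirror, 14.40 against 14.37. The CTCF site +44 had 32.6, 32.0 and 28.2 against 4.87, 5.07 and 3.18, and +48 had 18.5, 20.7 and 13.9 against 3.12, 3.62 and 2.97.

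The highest gene-side bin of 2 kb at alpha, beyond the first 6 kb, was none of these windows. It lay at 62 to 64 kb (chr11:32199490-32201489, mm9), between the Hba-a2 and +44 windows, with 46.2, 51.4 and 75.5 contacts, followed by the bins at 64 to 66 kb (45.6, 47.3 and 52.3) and 70 to 72 kb (35.9, 35.5 and 44.1). They were picked out after their values were seen. In gene order, Hbq1a lies between Hba-a2 and Sh3pxd2b; the position of these bins against genes on mm9 was not annotated. On the away side the highest bin beyond 10 kb was that at -20 to -18 kb (chr11:32117490-32119489), with 34.4, 35.8 and 35.2 contacts.

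At beta the adult genes come first. Their range of 19 kb held 183, 161 and 207 contacts against 164, 171 and 140 in the mirror range, so it was higher in replicates 1 and 3 and lower in replicate 2. The embryonic beta-like genes had 52.9, 57.5 and 75.6 in 15 kb against 69.2, 92.3 and 74.3. The locus control region had 101.4, 93.2 and 143 in 20 kb against 70.1, 73.6 and 69.7, above its mirror in 3 of 3 replicates. Per kb, the means were 9.67 for the adult genes, 4.13 for the embryonic genes and 5.63 for the control region. The embryonic genes, between the other 2 ranges, thus had the lowest level per kb. The highest bins of 2 kb on the gene side were at 70 to 72 kb (chr7:111025489-111027488), just past the end of the control region's range at 68.4 kb, with 39.8, 32.2 and 53.1 contacts, and at 20 to 22 kb (chr7:110975489-110977488), in the adult gene range, with 41.6, 32.0 and 50.7. These too were picked out after their values were seen. From 90 to 150 kb every bin of 10 kb was higher at beta than at alpha in 3 of 3 replicates, although beta had a low stretch at 114 to 120 kb, with means of 0.33, 0.095 and 0.028 in its bins of 2 kb. The bin of 10 kb at 140 to 150 kb held 23.8, 27.6 and 22.4 contacts and that at 150 to 160 kb held 4.90, 6.88 and 4.00. Over the same bins alpha held 4.51, 6.01 and 4.62 and then 4.98, 5.38 and 4.14.

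**Figure D3:**
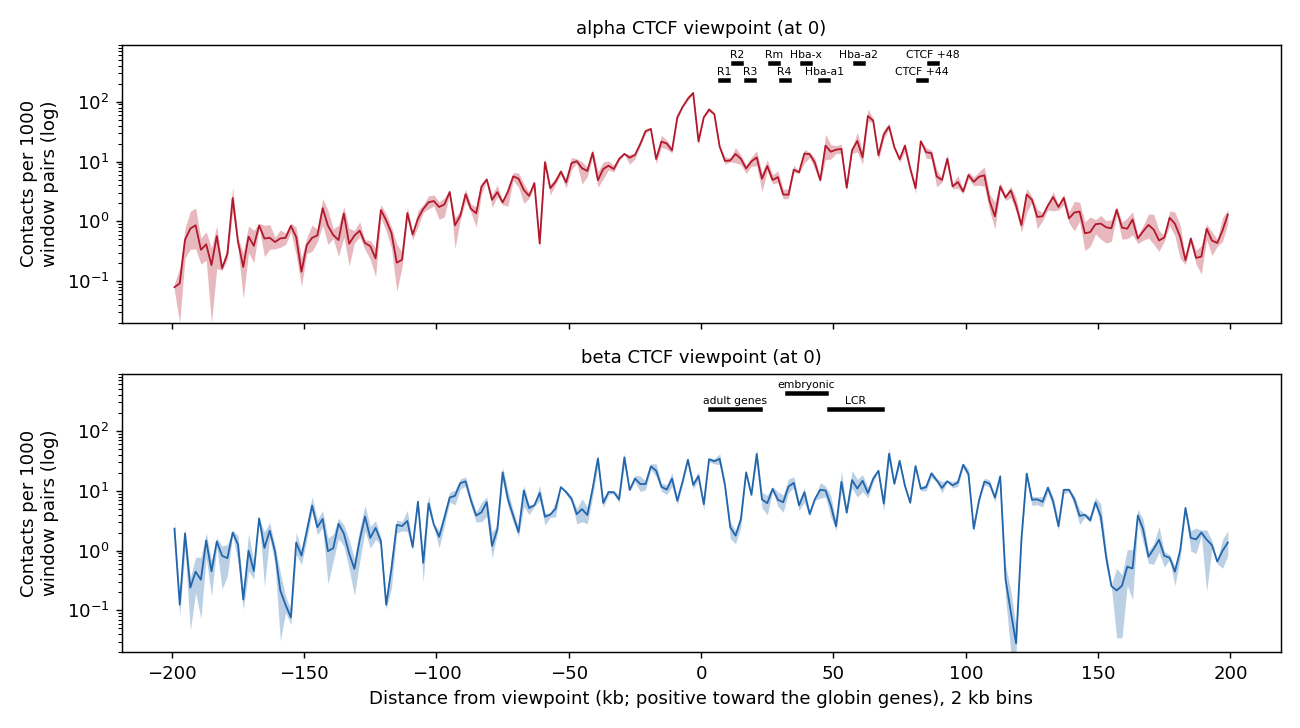
Contacts per 1000 window pairs (log axis, floor at 0.02) in bins of 2 kb within 200 kb of the alpha CTCF (top) and beta CTCF (bottom) viewpoints in erythroid cells; the line is the mean and the band the range of 3 replicates, and black bars mark the named windows (LCR, locus control region). At alpha a steep central peak is followed by a separate peak at 62 to 72 kb, whereas at beta a broad plateau extends from about -100 to 150 kb with no central peak of that height.

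Matched bins of 10 kb over the whole window gave the same contrast at finer scale. All 400 bins held at least 50 counts, and 153 were called (38.2%), 28 higher (7%) and 125 lower (31.2%) at alpha; the median log2 difference over all bins was -1.08. This split depended on the scaling. With TMM factors, which centre the bins near 0 (median -0.0006), it was 66 higher and 33 lower, relative to the table total 68 and 33, with DESeq2 68 and 63, and relative to all pairs on the chromosome 41 and 89. Without replicate 3, which holds the most counts, 77 bins were called, 14 higher and 63 lower.

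Within 100 kb the called bins alternated. The bin just beside the viewpoint on the away side, -10 to 0 kb, held 446, 394 and 393 contacts at alpha and 92.7, 85.4 and 74.6 at beta (log2 difference 2.29, SE 0.062). On the gene side, the bin at 60 to 70 kb held 141, 155 and 181 against 67.3, 60.2 and 75.0 (1.23, SE 0.084), while that at 90 to 100 kb held 26.6, 29.8 and 26.3 against 79.8, 76.2 and 80.9 (-1.52, SE 0.12). Between 100 and 200 kb the largest log2 difference was at 180 to 190 kb, at low levels of 1.76, 2.12 and 1.49 contacts at alpha and 12.5, 10.5 and 11.1 at beta (-2.68, SE 0.30). The bin at 120 to 130 kb held 6.57, 9.79 and 8.74 contacts at alpha and 41.2, 38.5 and 45.4 at beta, a log2 difference of -2.33 with window pairs as library size and -1.25 with TMM factors.

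Away from the genes, alpha had a second zone with more contacts than beta. From -600 to -280 kb the 32 bins summed to 120.3, 129 and 118 contacts at alpha and 76.0, 88.7 and 54.8 at beta, and 15 of them were called higher and 1 lower. Its edges, and those of the stretches beside it, were drawn after the values were seen, so these counts only describe where the called bins lie. This zone is the part of the away side in which the 200-500 and 500-1000 kb classes did not follow the steeper decay. Over all 400 bins, 28 were higher (7%) and 125 lower (31.2%) at alpha. From -1000 to -600 kb, 0 of 40 bins were higher at alpha and 7 lower, a smaller share lower than over all bins. The median log2 difference of that stretch was -1.05, close to the -1.08 of all bins. From -280 to -50 kb, 1 of 23 was higher and 17 lower, a larger share lower than over all bins. On the gene side 4 of 80 bins between 200 and 1000 kb were higher at alpha and 22 lower, near the shares over all bins. Beyond 1000 kb, 0 of 200 bins were higher at alpha. There, 43 of 100 on the away side and 23 of 100 on the gene side were lower.

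By the rule for named bins, the 5 of largest increase at alpha were 4 bins of that zone and 1 far bin on the gene side. The bin at -520 to -510 kb (chr11:31617490-31627489 against chr7:110435489-110445488) held 3.21, 5.05 and 3.40 contacts at alpha and 0.38, 0.53 and 0.040 at beta, a log2 difference of 4.07 (SE 0.55, edgeR adjusted p = 6.36e-12). Its neighbours at -530 and -510 kb had log2 differences of 3.40 and 2.96, and the bin starting at -460 kb had 2.74. All 4 passed the threshold under all 16 alternatives that gave a value. The far one, at 910 to 920 kb, rested on low levels, with 0.95, 0.86 and 0.44 against 0.083, 0.035 and 0.032, and its call (log2 3.91) was lost without replicate 3 and with the first technical replicates alone. These bins also hold more listed fragments at alpha, 57 against 18 at -520 kb, 45 against 17 at -530 kb, 74 against 26 at -510 kb and 62 against 34 at -460 kb. With the fragment offset the differences were smaller, 2.41 at -520 kb, 2.003 at -530 kb, 1.45 at -510 kb and 1.88 at -460 kb, and all 4 were still called. The highest bin of the zone at alpha was another, at -400 to -390 kb (chr11:31737490-31747489), with 10.4, 6.01 and 10.2 contacts, against a median of 0.44 over all away-side bins beyond 200 kb; it was picked out after its value was seen.

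The 5 bins of largest decrease all lay beyond 1500 kb. The bin at 1920 to 1930 kb (chr11:34057490-34067489 against chr7:112875489-112885488) held 0, 0.041 and 0.030 contacts at alpha and 1.14, 1.67 and 1.27 at beta, a log2 difference of -5.94 (SE 1.13, edgeR adjusted p = 2.19e-06). Alpha had next to no contacts there. The bin at -1550 to -1540 kb held 0.11, 0.041 and 0.13 at alpha and 2.23, 4.96 and 3.46 at beta (log2 difference -5.15, SE 0.62, edgeR adjusted p = 8.65e-15). The others began at -1820, -1810 and 1960 kb, with log2 differences of -5.63, -5.27 and -5.16. Their calls held under every alternative that gave a value.

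**Figure D4:**
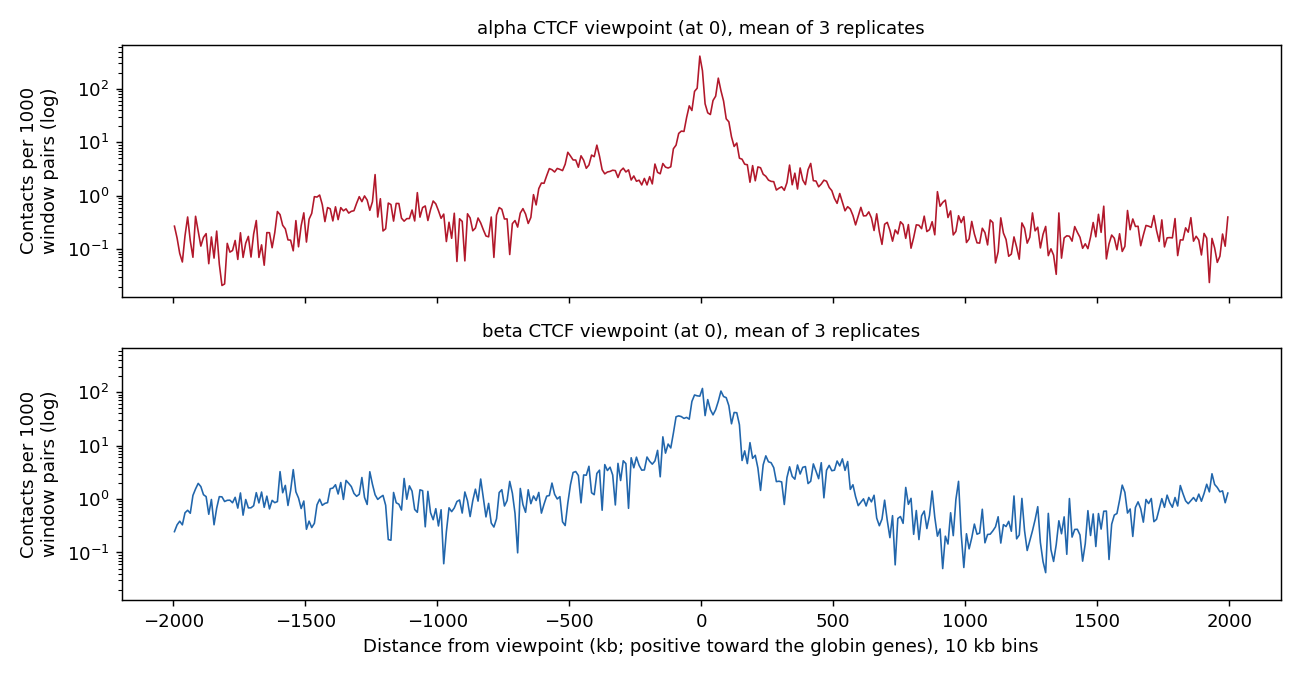
Mean contacts per 1000 window pairs (log axis) in bins of 10 kb out to 2 Mb on either side of the alpha CTCF (top) and beta CTCF (bottom) viewpoints, from 3 erythroid replicates. Alpha shows a step up between about -600 and -280 kb and low levels beyond 600 kb on the gene side, while beta keeps levels near 1 beyond -1000 kb.

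Three-way contacts add whether a pair spans the viewpoint, with a fragment on each side, or lies on 1 side of it. Most pairs lay on 1 side. Spanning pairs made up 19.9%, 18.9% and 16.3% of window pairs at alpha and 17.5%, 17.4% and 13.02% at beta. Alpha was higher in 3 of 3 replicates, by 2.38 percentage points ± 0.90 (SD, n = 3; exact sign-flip p = 0.25, exact unpaired permutation p = 0.3), and the groups overlapped. If both fragments chose a side independently at the measured gene-side shares, 49.9% of pairs at alpha and 48.8% at beta would span. Pairs with both fragments on the gene side made up 38.3%, 38.5% and 44.7% at alpha and 47.6%, 43.9% and 55.01% at beta, and pairs with both on the away side 41.8%, 42.7% and 39.0% against 34.8%, 38.7% and 32.0%.

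Many of the one-sided pairs joined neighbouring fragments. Pairs whose fragments lie under 2 kb apart, which cannot span since 1 kb on each side was left out, made up 50.7%, 52.9% and 60.7% of window pairs at alpha and 49.1%, 50.8% and 58.1% at beta. Without them, spanning pairs made up 40.5%, 40.04% and 41.4% at alpha and 34.5%, 35.3% and 31.1% at beta. The groups then no longer overlapped, and the difference was 7.02 percentage points ± 2.96 (SD, n = 3; exact sign-flip p = 0.25, exact unpaired permutation p = 0.1, each the smallest its design allows). Pairs on the away side had like shares, 29.1% ± 3.85 at alpha and 29.4% ± 3.02 at beta, and pairs on the gene side had 30.2% ± 3.15 and 37.02% ± 5.07. When a fragment pair counted once per library the spanning share was 28.5%, 27.0% and 27.6% at alpha and 22.9%, 21.4% and 20.4% at beta.

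**Figure D5:**
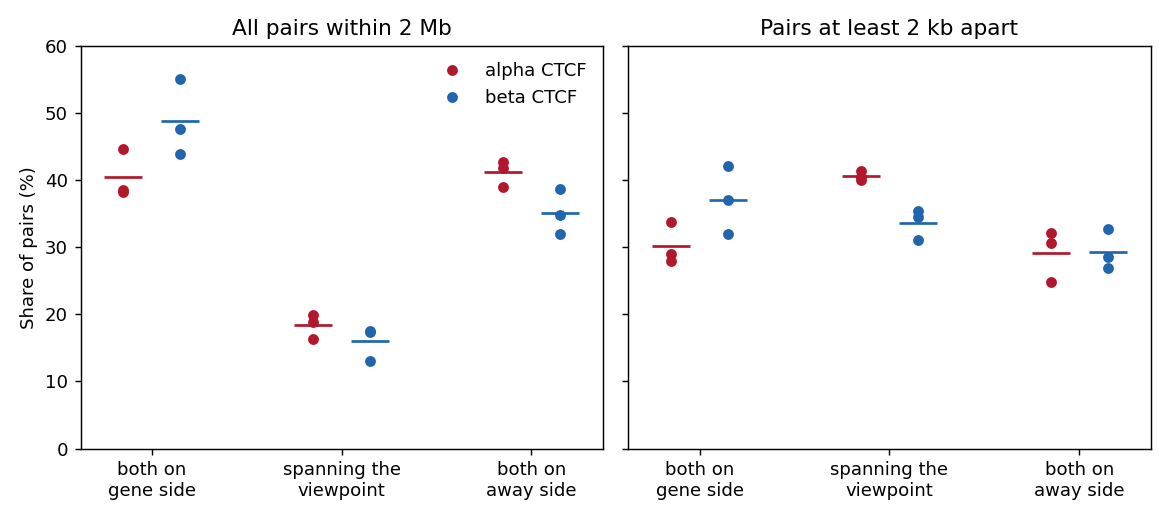
Share of window pairs (percent) with both fragments on the gene side, spanning the viewpoint, or both on the away side, per erythroid replicate (points) with the mean of 3 (bar); left, all pairs within 2 Mb, right, pairs whose fragments lie at least 2 kb apart. Leaving out close pairs raises the spanning share from means of 18.4% (alpha) and 16.0% (beta) to 40.6% and 33.6%, and parts the alpha from the beta replicates.

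When both distances were fixed and all pairs kept, few differences in spanning were called. For each of 55 pairs of unsigned distance classes, the ratio of spanning over same-side pairs was compared between the viewpoints in edgeR, and 3 of 55 were called (5.45%), 1 higher (1.82%) and 2 lower (3.64%) at alpha. Within alpha 29 of 55 ratios were called (52.7%), 24 below (43.6%) and 5 above parity (9.09%), and within beta 20 of 55 (36.4%), 19 below (34.5%) and 1 above (1.82%). The lowest ratios at both viewpoints were in pairs of equal class, where the mean spanning share was 1.40% to 4.99% at alpha and 1.59% to 4.96% at beta. Fragments under 2 kb apart cannot span, lie in the same class or in neighbouring ones, and were kept here. Low ratios in equal classes, and the counts below parity, were therefore partly fixed in advance. The ratios within each viewpoint without such pairs are not given. The 5 ratios above parity at alpha all joined a class to a far partner, for example 10-20 with 50-100 kb, where 60.8% ± 3.84 of pairs spanned (log2 0.64, SE 0.21, edgeR adjusted p = 0.00978), against 53.9% ± 1.26 at beta (edgeR adjusted p = 0.459). The difference between the viewpoints in that class pair was not called (edgeR adjusted p = 0.413). Parity makes no allowance for the side each class leans to. At alpha the 10-20 kb class leaned away from the genes (log2 ratio -0.98) and the 50-100 kb class toward them (2.28). A ratio above parity is therefore not by itself an excess over what the single contacts would give.

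Of the 3 differences called with all pairs kept, the strongest, between 5-10 and 20-50 kb, had spanning shares of 42.8%, 35.4% and 42.1% at alpha and 14.4%, 10.4% and 8.96% at beta (interaction 2.43, SE 0.31, edgeR adjusted p = 7.34e-09). At beta this class pair is where Hbb-bt and Hbb-bs, 14005 bp apart, meet on the gene side. Pairs joining both adult genes numbered 17.3, 14.5 and 21.0 per 1000 window pairs at beta and 6.72, 6.22 and 13.05 at alpha. When a fragment pair counted once per library, they numbered 3.80, 4.43 and 3.51 at beta and 4.17, 3.82 and 5.55 at alpha. The groups then overlapped, so the higher level at beta rests on repeated counts. With all counts and these pairs left out at both viewpoints, the interaction was 0.15 (edgeR adjusted p = 0.827). With these pairs kept and a fragment pair counted once per library, the interaction was 0.84 (edgeR adjusted p = 0.000894). Whether reads were split between similar copies was not tested. The other 2 lay next to the viewpoint: 1-2 with 1-2 kb, with spanning shares of 1.88%, 2.03% and 0.30% at alpha and 3.82%, 5.22% and 4.52% at beta (-2.02, SE 0.45, edgeR adjusted p = 0.000626), and 1-2 with 2-5 kb, with 26.8%, 17.6% and 19.0% against 43.6%, 58.7% and 48.1% (-1.92, SE 0.34, edgeR adjusted p = 1.96e-05). With pairs under 2 kb apart left out, 1-2 with 2-5 kb was not called (-0.11). For 1-2 with 1-2 kb that setting removes every same-side pair, so it cannot decide, and the fitted 0.56 carries no meaning. That setting left 2 of 55 class pairs called, both higher at alpha. They were 5-10 with 20-50 kb (2.43, edgeR adjusted p = 4.98e-11) and 20-50 with 20-50 kb (1.72, edgeR adjusted p = 2.09e-06). The latter was not called with all pairs kept (0.89, edgeR adjusted p = 0.138). When a fragment pair counted once per library, 4 were called higher at alpha and 3 lower. The lowest adjusted p was then at 100-200 with 100-200 kb (-1.23, edgeR adjusted p = 4.83e-06).

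The last comparison asked which pairs of signed classes occurred together more or less often than their single contacts would give. The expected count of a pair is the product of both classes' shares in the same table and replicate, so the fit compares the excess over it. Of 209 class pairs with at least 50 counts, 70 were called (33.5%), 31 higher (14.8%) and 39 lower (18.7%) at alpha. They split by distance. Of the 104 pairs with at least 1 class beyond 200 kb, 22 were higher at alpha and 2 lower, with a median log2 difference of 0.58; of the 105 pairs with both classes within 200 kb, 9 were higher and 37 lower, with a median of -0.36. With pairs under 2 kb apart left out, 24 were higher and 9 lower; the far group then had 10 higher and 3 lower, and the near group 14 higher and 6 lower. Close fragments enter both the pair and the expected count. Without replicate 2, 42 class pairs were called, and without replicate 3, 41.

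The 5 class pairs of largest increase at alpha, by excess over the expected count, all held a class beyond 500 kb. The pair of away 1000-2000 kb with gene 500-1000 kb had 38, 64 and 47 counts at alpha and 24, 45 and 172 at beta, at log2 observed over expected of 0.25, 0.85 and -0.65 against -3.94, -2.48 and -1.79 (difference 2.85, SE 0.59, edgeR adjusted p = 0.000797). Gene 500-1000 with gene 1000-2000 kb was at 2.35, 2.19 and 1.02 against -1.35, -0.46 and -1.08 (2.81, SE 0.43, edgeR adjusted p = 1.71e-05). The next 3 by size were away 500-1000 with away 100-200 kb (1.93), gene 200-500 with gene 1000-2000 kb (1.88) and away 1000-2000 with gene 1000-2000 kb (1.83). The first 4 of these 5 were called also with pairs under 2 kb apart left out, and the fifth was not (1.05, edgeR adjusted p = 0.0933). The counts are low: the first lost its call without replicate 2 (2.57) and the fourth without replicate 1 (1.31), and the third alone was called in the first technical replicates by themselves.

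The 5 class pairs of largest decrease at alpha all lay near the viewpoint on at least 1 side, and 4 of them involved gene 1-2 kb, from 3 listed fragments at beta. Away 5-10 with away 2-5 kb rested on the most counts, 1255, 791 and 1606 at alpha and 307, 152 and 475 at beta, at log2 observed over expected of -0.65, -0.69 and -1.10 against 2.35, 1.59 and 2.15 (difference -2.85, SE 0.24, edgeR adjusted p = 9.25e-10). That difference turned to 0.23 with pairs under 2 kb apart left out, and none of the other 4 was called under that setting (edgeR; adjusted p from 0.163 to 0.459). Of the spanning pairs between 20 and 200 kb, 2 were picked out after their values were seen: away 20-50 with gene 50-100 kb was at -1.34 on average at alpha and -1.997 at beta (difference 0.66, SE 0.17, edgeR adjusted p = 0.00544) and was called also with close pairs left out (0.62, edgeR adjusted p = 0.00116). Likewise, away 20-50 with gene 100-200 kb differed by 0.88 and by 0.78 with close pairs left out, both called. Both lay below expectation at each viewpoint, less so at alpha.

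The same 4 values were set beside those of the ES cells, in which both loci are silent. There the gene-side share was 48.6%, 49.2% and 48.4% at alpha and 52.7%, 47.4% and 45.7% at beta, and the slope was -1.18, -1.16 and -1.08 against -0.76, -0.49 and -0.52. The alpha minus beta difference in gene-side share was 0.14 percentage points ± 3.68 in ES cells and -7.17 ± 2.18 in erythroid cells (n = 3 each; exact permutation p = 0.1, the smallest possible). That in slope was -0.54 ± 0.13 against -0.15 ± 0.056 (n = 3 each; exact permutation p = 0.1), and that in window share 10.02 ± 3.21 against 18.2 ± 1.88 percentage points (n = 3 each; exact permutation p = 0.1). The difference in spanning share was 3.54 ± 1.83 against 2.38 ± 0.90 (n = 3 each; exact permutation p = 0.5). With pairs under 2 kb apart left out, spanning shares in ES cells were 37.4%, 35.2% and 37.2% at alpha. At beta they were 30.3%, 22.9% and 27.2%, without overlap. That difference was 9.79 ± 2.59 in ES cells against 7.02 ± 2.96 in erythroid cells (n = 3 each, exact permutation p = 0.3). Within 150 kb of the viewpoint, the gene-side share in ES cells was 47.3%, 47.9% and 46.2% at alpha and 58.8%, 68.2% and 65.3% at beta, which did not overlap. ES replicates 2 and 3 of beta held 93686 and 125570 pairs in all, against 785662 in replicate 1.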

How the data were processed

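Tri-C was performed on 10 erythroid and 7 ES libraries with 4 viewpoints. The authors deposited, per viewpoint, raw read counts per pair of NlaIII fragments and library. The submitters' processing notes name Trim Galore, Bowtie and the build mm9; versions, and any removal of duplicate reads, are not given in the sources used here. No normalization is recorded and the counts were used as deposited.

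Technical replicates were summed into 3 biological replicates. Pairs with both fragments within 2 Mb and over 1 kb from the viewpoint were kept. Counts in 10 distance classes per side, in 10 kb bins with at least 50 counts and in class pairs were tested with edgeR 4.0.16 (quasi-likelihood, Benjamini-Hochberg, adjusted p 0.05) in R 4.3.3, over the erythroid libraries alone, with replicate as a block and window pairs as library size; SE is the size of the log2 change over the root of F. Side and spanning ratios were tested as interactions. DESeq2 1.42.0 was an alternative. Single values were summed with Python 3.11.15 and tested with exact two-sided sign-flip and permutation tests (numpy 2.4.6). The fits were tested on simulated counts.

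Both tables of a replicate come from the same libraries, which is where the pairing comes from; deviations of the same-numbered tables from the group means correlated at 0.029, 0.024 and 0.033. Named bins and class pairs are up to 5 per direction of largest change among calls with all 3 replicates on one side; all distance classes and side ratios are given. The element windows, like all members and lists, were chosen with earlier results of these data known. Leaving out pairs that join both adult genes, and close pairs in the ES shares, were alternatives added after seeing the data.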

Additional observations from a re-analysis of the deposited data

Results flagged for a closer look

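The ratio of gene-side over away-side contacts differed between alpha and beta by the interaction test (edgeR, erythroid cells) in 6 distance classes. On the log2 scale, alpha minus beta, the difference was 2.92 at 1-2 kb, -2.22 at 2-5 kb, -1.79 at 5-10 kb, 1.13 at 50-100 kb, -0.84 at 200-500 kb and -1.59 at 500-1000 kb.

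The ratio of spanning over same-side pairs differed in 3 class pairs, by -2.02 for 1-2 with 1-2 kb, -1.92 for 1-2 with 2-5 kb and 2.43 for 5-10 with 20-50 kb.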

How the results depend on the processing

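Of 672 alternative values for single classes, ratios, bins and class pairs, 586 kept their direction and their side of the threshold, 46 lost the call, 17 gained it and 23 changed sign; of 109 for counts of calls and shares, 87 stayed and 22 moved. Causes were not tested. The 153 called bins became 100 without the first technical replicates, 97 with these alone, 101 relative to the table total, 99 with TMM factors and 77 to 126 with a replicate left out. The 3 spanning calls became 7 with each fragment pair counted once, 1 with the first technical replicates alone and 1 without fragments within 5 kb. The 70 class pair calls became 36 with the first technical replicates alone, 44 without fragments within 5 kb, 33 without pairs under 2 kb apart and 41 to 55 with a replicate left out. With each pair counted once, without fragments within 5 kb and without pairs under 2 kb apart, the difference in gene-side share was -3.57, -4.79 and -3.29, and that in window share 13.9, 11.2 and 7.84; that in spanning share was 6.12 with each pair counted once and 7.02 without close pairs. The erythroid minus ES difference in window share became 4.24 without close pairs.

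Sign changes were as follows. Away 500-1000 and 200-500 kb: -0.014 and -0.022 without replicate 3 (with a replicate left out, up to 0.34 and 0.28), -0.069 and -0.055 with the fragment offset. Away 50-100 kb: 0.094 relative to the table total. Away 20-50 kb: 0.11 counted once, 0.14 without fragments within 5 kb, 1.04 and 0.34 relative to table and chromosome totals, 0.0057 with TMM. Away 1-2 kb: -0.070 counted once, -0.24 with the first technical replicates alone. Gene 5-10 and 10-20 kb: -0.097 and -0.54 with the fragment offset. Gene 20-50 kb: 0.067 counted once, 0.027 without close pairs, 0.82 and 0.13 relative to table and chromosome totals. Gene 200-500 kb: 0.42 relative to the table total. Without close pairs, the side ratio was -0.087 at 10-20 kb and 0.17 at 20-50 kb, spanning of 1-2 with 1-2 kb 0.56, and away 5-10 with away 2-5 kb 0.23. The 0.56 carries no meaning, since all same-side pairs of 1-2 with 1-2 kb are close pairs.

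Without the replicate block the calls numbered 13 of 20 classes, 169 bins, 6 side ratios, 3 spanning ratios and 65 class pairs; the pairing rests on the shared libraries. Counts per bin beyond 1000 kb are low at alpha, which limits the fold changes there.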
